A study of Mus musculus with 6 samples.

Results

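To examine how genes that mark long-term hematopoietic stem cells (LT-HSCs) behaved after irradiation in the absence of Tespa1, 10 such genes were followed by symbol: Slamf1, Cd48, Cd34, Procr, Tek, Robo4, Esam, Fgd5, Pdzk1ip1 and Ctnnal1. They are 10 of the 55487 genes in the deposited table, and all 10 were among the 15332 genes that passed the filter on low counts and were tested. The libraries came from LSKs, the Lin- Sca1+ c-Kit+ fraction of bone marrow that contains stem cells and multipotent progenitors. There were 3 libraries from Tespa1+/+ mice, which were wild-type littermates, and 3 from Tespa1-/- mice, which carry the B6.129S-Tespa1tm1Smoc allele on a C57BL/6 background. According to the methods of the study, mice were male, 8 to 10 weeks old and received 5 Gy of total body irradiation, and LSK RNA was taken at day 13. All mice of both groups were irradiated, so no unirradiated level was analysed here. The allele is constitutive, so cells outside the blood system lack the gene as well. The sources used here do not say if each library came from a single mouse or from pooled mice, and p-values measure only the spread between these libraries.

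LT-HSCs are rare, mostly quiescent cells that rebuild the whole blood system after transplantation, and they are recognised by combinations of surface proteins. In the mouse, CD150 (encoded by Slamf1), EPCR (Procr), ESAM and TIE2 (Tek) are present on them, while CD48 and CD34 are absent or low on the most primitive cells and appear as cells become progenitors. Several of these proteins, among them TIE2, ROBO4 and ESAM, are also made by endothelial cells.

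The libraries held between 12856630 and 30576981 counts. Levels are given as CPM, the library's counts scaled to a common total with TMM factors. Tespa1 averaged 34.4 CPM (SD 1.62, n = 3) in wild-type LSKs. In Tespa1-/- LSKs it averaged 14.6 CPM (SD 0.634, n = 3), with reads still assigned to it in each library (log2 fold change -1.23, SE 0.07, adjusted p by edgeR 7.0e-06). The genes that define the sort were present in every library, with 2045 or more counts of Kit and 473 or more of Ly6a, which encodes Sca-1. Of the lineage genes, Cd3e had at most 8 counts and Ly6g at most 8 in any library, whereas Itgam had between 175 and 1000. The groups also differed along gene length: over 10029 genes the log2 fold change fell with union exon length (Spearman's rho -0.62 across genes, and genes are no independent replicates). A length correction brought rho to -0.0083, and named genes whose call changed with it are given with their corrected value. The part of this trend in the results was not tested.

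Most of the marker genes were lower in Tespa1-/- LSKs. A gene was called when its edgeR adjusted p was under 0.05 and its fold over 1.5. By this rule 8 of 10 genes were lower (Robo4, Fgd5, Slamf1, Tek, Esam, Procr, Pdzk1ip1 and Cd34), against 19.2% of all genes tested, and 0 of 10 were higher, against 14.0% of all genes tested. Cd48 and Ctnnal1 were not called. For 9 of 10 genes every Tespa1-/- library lay below every Tespa1+/+ library, which held for 34.6% of all genes tested, and Ctnnal1 was the exception. The median log2 fold change of the 10 genes was -1.09, compared with 0.00 over all genes tested. With the length correction 8 of 10 genes were again lower, against 17.1% of all genes tested, but Cd48 entered the call and Cd34 left it, and the median was -1.34. Of all called genes 42.1% were higher, and this share was 29.8% with scaling by total counts alone and 27.4% with the length correction. In bulk RNA of a sorted fraction, fewer cells of a type and less RNA per cell cannot be told apart.

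**Figure D1:**
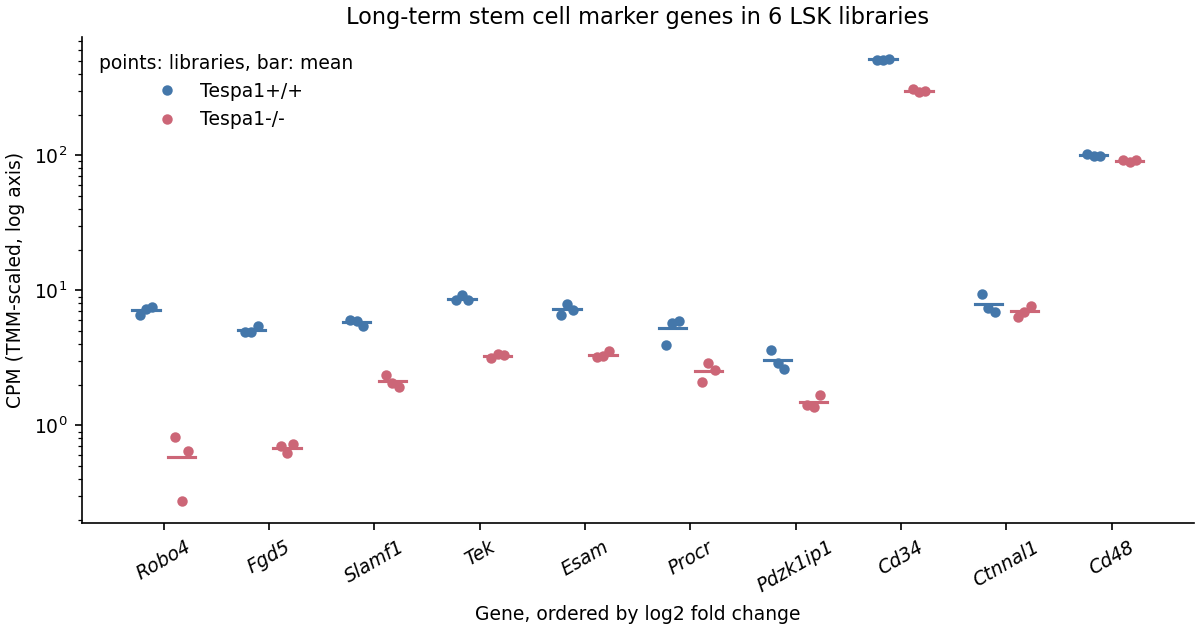
Level of each marker gene in the 6 LSK libraries, in TMM-scaled CPM on a log axis; points are libraries, bars are group means (n = 3), and genes run from the lowest log2 fold change on the left. Robo4 and Fgd5 lie under 1 CPM in every Tespa1-/- library, and only Ctnnal1 has groups that overlap.

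The pair of SLAM receptors that defines the SLAM-HSC gate (CD150+ CD48-) was examined first. Slamf1 encodes CD150, a self-binding receptor of the signaling lymphocytic activation molecule family. It was measured at 6.06, 5.95 and 5.46 CPM in the Tespa1+/+ libraries and at 2.35, 2.07 and 1.94 CPM in the Tespa1-/- libraries. The groups did not overlap, and the lowest wild-type library was still well above the highest knockout library. The group means were 5.82 ± 0.317 and 2.12 ± 0.211 CPM (SD, n = 3). Slamf1 was 2.74-fold lower (log2 fold change -1.45, SE 0.13, edgeR adjusted p 5.51e-05).

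Cd48 encodes a GPI-anchored ligand that binds the receptor 2B4, the product of Cd244a, and is widely present on progenitors. It was measured at 103, 99.4 and 99.2 CPM in the Tespa1+/+ and at 92.9, 88.7 and 92.0 CPM in the Tespa1-/- libraries. The Tespa1-/- libraries were all slightly lower. The log2 fold change was -0.14 (SE 0.04, edgeR adjusted p 0.0136), a 1.10-fold difference that does not reach the fold of the call. Cd48 has a short union exon length of 1189 bases, and with the length correction its log2 fold change was -0.62 (SE 0.04, edgeR adjusted p 2.47e-05), past the call.

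Set against each other per length, the deposited FPKM of Cd48 was 60.2, 59.0 and 64.2 times that of Slamf1 in the Tespa1+/+ libraries. In the Tespa1-/- libraries it was 140, 152 and 168 times that of Slamf1. The log2 ratio of Slamf1 to Cd48 was -5.93 ± 0.06 and -7.25 ± 0.13 (SD, n = 3), and the groups did not overlap. Slamf1 transcripts were thus scarcer relative to Cd48 transcripts in all 3 knockout libraries, and with the length correction the difference between the groups in this log2 ratio was -0.64 in place of -1.31 (from the edgeR fits).

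Both genes lie on chromosome 1 in a cluster of SLAM family genes (GRCm38, plus strand), Cd48 at chr1:171682009-171705258 and Slamf1 at chr1:171767127-171801184, with 61868 bases between them. Of 9 other tested genes that lie within 200000 bases of the pair, 3 were called lower (Slamf7, Cd84 and Gm10521), 0 were called higher and 6 were not called. Over all genes tested 19.2% were lower and 14.0% higher. The stretches directly before their start sites (RefSeq, GRCm38.p6), ended where the first annotated exon begins, are shown because Slamf1 was called and its neighbour Cd48 was not. They cover chr1:171681742-171681991 for Cd48 and chr1:171766882-171767126 for Slamf1. Capitals mark letters of binding sites that were searched on both strands.
Cd48: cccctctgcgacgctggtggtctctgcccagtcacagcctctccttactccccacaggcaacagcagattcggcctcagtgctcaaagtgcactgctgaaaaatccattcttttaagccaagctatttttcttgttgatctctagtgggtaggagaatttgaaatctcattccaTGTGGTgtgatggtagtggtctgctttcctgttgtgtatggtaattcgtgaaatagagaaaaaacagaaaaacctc
Slamf1: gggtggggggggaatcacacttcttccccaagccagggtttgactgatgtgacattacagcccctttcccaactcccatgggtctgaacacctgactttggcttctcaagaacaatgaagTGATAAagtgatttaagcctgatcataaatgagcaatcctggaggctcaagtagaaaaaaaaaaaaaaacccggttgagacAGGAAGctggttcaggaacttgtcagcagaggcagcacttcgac
Cd48 held TGTGGT, a RUNX site, 76 bases before its start, letters found in 14.1% of all 32851 windows of 250 bases. Slamf1 held TGATAA 130 bases before its start (7.94% of all windows), which matches the site of GATA factors. It also held AGGAAG, an ETS site, 49 bases before its start (29.5% of all windows). Such matches describe the letters only. Neither window is rich in CpG, with 4 CpG dinucleotides for Cd48 and 3 for Slamf1.

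The other SLAM receptors and their adaptors moved in both directions. Of 12 listed symbols 8 genes were tested beside the pair, of which 2 fell (Cd84 and Slamf7), 1 rose (Slamf9) and 5 were not called, with a median log2 fold change of -0.48. Cd84, a receptor on platelets and progenitors, fell from 45.0 ± 1.67 to 26.1 ± 1.3 CPM (log2 fold change -0.79, SE 0.06, edgeR adjusted p 3.1e-05). Slamf7 fell by 0.86 on the log2 scale (SE 0.26, edgeR adjusted p 0.0237). Slamf9 rose, but on counts of 1, 10 and 7 against 12, 17 and 9. The log2 fold changes were -0.47 for Cd244a, -0.50 for Slamf6, -0.21 for Ly9, -0.98 for Slamf8 and 0.46 for the adaptor Sh2d1b1, and none of these was called. With the length correction the lower genes were Slamf7 and Slamf8 (-1.16), Cd84 (-0.58) and Slamf9 (1.16) lost their calls, and none was higher. The share of lower genes in this list was 25.0% in both fits, near that of all genes tested (19.2%, and 17.1% with the length correction).

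Cd34, which encodes a sialomucin that separates LT-HSCs (CD34-) from short-term HSCs and multipotent progenitors (CD34+), was next. It lies at chr1:194938819-194961279 (plus strand) and was the most abundant marker gene by CPM, with 511, 512 and 518 CPM in the Tespa1+/+ and 308, 296 and 299 CPM in the Tespa1-/- libraries. Libraries within a group hardly varied, and the groups were far apart. The log2 fold change was -0.77 (SE 0.03, edgeR adjusted p 1.36e-06), or 1.71-fold lower. With the length correction it was -0.48 (SE 0.02, edgeR adjusted p 1.08e-05), which is below the fold of the call although the direction was kept. The exons of Cd34 share 148 bases with an antisense gene, Gm16897, which had at most 11 counts in any library.

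Cd34 marks cells that have left the LT-HSC gate, and it was lower in the knockout libraries beside genes that mark cells inside the gate. The log2 ratio of Cd48 to Cd34 in FPKM went from 0.09 ± 0.04 to 0.72 ± 0.02 (SD, n = 3), without overlap, but its direction depends on gene length: the difference from the edgeR fits was 0.63, and -0.14 with the length correction. The log2 ratio of Procr to Cd34 was -5.26 ± 0.32 in Tespa1+/+ and -5.52 ± 0.26 in Tespa1-/- libraries, and here the groups overlapped. From the edgeR fits this difference was -0.28, and -0.91 with the length correction. Podxl, which encodes a sialomucin of the CD34 family, fell further, from 11.6 ± 1.09 to 1.21 ± 0.289 CPM (log2 fold change -3.23, SE 0.17, edgeR adjusted p 6.2e-06). Crkl, an adaptor gene, was not called (log2 fold change -0.41).

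The receptor genes followed. Procr (chr2:155751117-155755471, plus strand) encodes EPCR, which binds protein C and holds LT-HSCs in the marrow. Its levels were 3.96, 5.76 and 5.94 CPM in the Tespa1+/+ and 2.11, 2.89 and 2.58 CPM in the Tespa1-/- libraries. The first wild-type library was lower than the others, yet the groups did not overlap. Procr was 2.08-fold lower (log2 fold change -1.06, SE 0.21, edgeR adjusted p 0.00316). On log2(FPKM + 1), a scale that compresses low genes, the difference was -0.56 and did not reach the fold of the call.

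Of 6 tested genes of the protein C and thrombin system that works with EPCR, 5 fell as well, against 19.2% of all genes tested. Thbd, which encodes thrombomodulin, went from 23.5 ± 1.24 to 10.2 ± 1.69 CPM (log2 fold change -1.20, SE 0.12). F2r, which encodes the thrombin receptor PAR1, went from 38.1 ± 1.03 to 11.4 ± 1.08 CPM (log2 fold change -1.75, SE 0.08). The edgeR adjusted p was 0.000113 for Thbd and 3.45e-06 for F2r. The related receptors F2rl2 and F2rl3 fell by 1.73 and 0.73 on the log2 scale, F2rl2 on 14, 29 and 12 against 5, 3 and 3 counts. Tissue factor (F3) fell by 1.32 (SE 0.37, edgeR adjusted p 0.016), on 26, 43 and 13 against 12, 7 and 3 counts. Tfpi, an inhibitor of tissue factor, was not called (log2 fold change 0.26, edgeR adjusted p 0.163), and Proc, which encodes protein C itself and is made in liver, was at 0 in every library.

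Tek (chr4:94739289-94874976, plus strand) encodes TIE2, the angiopoietin receptor that supports stem cell quiescence in the niche. It was measured at 8.42, 9.25 and 8.43 CPM in the Tespa1+/+ and at 3.17, 3.38 and 3.31 CPM in the Tespa1-/- libraries. Replicates were tight and the groups were clearly separated. Tek was 2.66-fold lower (log2 fold change -1.41, SE 0.10, edgeR adjusted p 2.31e-05). Its ligand gene Angpt1, which stem and progenitor cells also transcribe, fell from 119 ± 3.86 to 25.4 ± 0.736 CPM (log2 fold change -2.23, SE 0.05, edgeR adjusted p 3.29e-07). Its sister receptor gene Tie1 fell from 52.6 ± 3.58 to 20.3 ± 1.93 CPM (log2 fold change -1.37, SE 0.09, edgeR adjusted p 1.19e-05). Ptprb, which encodes the phosphatase that acts on TIE2, had 26, 22 and 24 counts in Tespa1+/+ and 0, 0 and 2 counts in Tespa1-/- libraries and was also called lower. Ligand, both receptors and phosphatase were each called lower.

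Robo4 (chr9:37401897-37415115, plus strand) encodes a roundabout receptor that guides stem cells to and from the marrow vessels. It had the largest fold of the 10 genes, with 119, 231 and 111 counts in the Tespa1+/+ and 14, 4 and 8 counts in the Tespa1-/- libraries. This corresponds to 6.55, 7.32 and 7.49 CPM against 0.822, 0.276 and 0.645 CPM. The few knockout counts made its relative spread the largest of all (CV 48.0%), but the groups did not come near each other. Robo4 was 11.9-fold lower (log2 fold change -3.58, SE 0.26, edgeR adjusted p 2.32e-05). Of its relatives, Robo3 fell by 0.84 on the log2 scale (edgeR adjusted p 0.00275), a call lost with the length correction (-0.58). Slit1, a ligand of roundabout receptors, was called lower on 12, 22 and 9 against 2, 0 and 2 counts.

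Across all partners of the member receptors, 26 genes were listed and 14 were tested, of which 11 fell, 0 rose and 3 were not called. Their median log2 fold change was -1.35, and with the length correction 10 fell and 0 rose. The lower share was 78.6%, or 71.4% with the length correction, against 19.2% and 17.1% of all genes tested.

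Esam (chr9:37528078-37538319, plus strand) encodes an adhesion molecule of endothelial junctions that also marks stem cells. It was measured at 6.61, 7.95 and 7.15 CPM in the Tespa1+/+ and at 3.23, 3.24 and 3.55 CPM in the Tespa1-/- libraries. No knockout library reached the level of any wild-type library. Esam was 2.18-fold lower (log2 fold change -1.12, SE 0.12, edgeR adjusted p 0.000149). Esam and Robo4 lie 112962 bases apart, and of 13 other tested genes within 200000 bases of the pair 7 were called lower, 3 higher and 3 not called. Over all genes tested 19.2% were lower and 14.0% higher. Robo3, Msantd2 and Gm47963, which lie between them, were lower by 0.84, 0.81 and 2.94 on the log2 scale. Gm47963 had 39, 63 and 35 against 3, 7 and 2 counts, and Robo3 lost its call with the length correction (-0.58).

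Other junction and adhesion genes were split. Of 13 tested genes 6 fell, 0 rose and 7 were not called, with a median log2 fold change of -0.57 (4 lower with the length correction). The lower share was 46.2%, or 30.8% with the length correction, against 19.2% and 17.1% of all genes tested. The tight junction scaffold gene Tjp1 went from 23.6 ± 1.05 to 3.6 ± 0.656 CPM. F11r, which encodes the adhesion molecule JAM-A, and Ctnnd1, which encodes p120-catenin, fell by 1.08 and 0.74 on the log2 scale, and the call of Ctnnd1 was lost with the length correction (-0.45). Icam1 and Icam2 were not called, with log2 fold changes of 0.03 and 0.24.

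Because several of the marker genes, among them Tek, Robo4, Esam and Cd34, are also endothelial genes, markers of endothelial cells were read beside them. Of 20 listed markers 13 were tested, of which 10 fell, 0 rose and 3 were not called, with a median log2 fold change of -2.13 (11 lower and 1 higher, Flt1 at 1.10, with the length correction), and Lyve1 was at 0 in every library. The lower share was 76.9%, or 84.6% with the length correction, against 19.2% and 17.1% of all genes tested. Higher were 14.0% of all 15332 genes tested, or 988 genes with the length correction. Tie1, Pecam1, Cdh5 and Cldn5 belong both to this list and to the partner or junction list. The summed level of the 20 markers was between 239 and 243 CPM in Tespa1+/+ and between 132 and 145 CPM in Tespa1-/- libraries. Most of this sum came from Pecam1 (108 ± 3.03 and 72.7 ± 2.92 CPM), Tie1 and Egfl7 (46.5 ± 3.66 and 32.5 ± 5.14 CPM), which blood progenitors also transcribe, and of these Egfl7 was called lower only with the length correction (-0.62). Apart from Flt1, the more restricted markers that were tested were low in wild-type libraries and lower still in knockout libraries. Flt1 went the other way, from 5.75 ± 1.06 to 8.25 ± 1.03 CPM (log2 fold change 0.51, not called without the length correction). Cdh5 was at 2.07 ± 0.571 and 0.475 ± 0.058 CPM. Stab2, a scavenger receptor of sinusoidal endothelium, was at 5.83 ± 0.383 and 0.127 ± 0.121 CPM. The part of endothelial cells in the differences of Tek, Robo4, Esam, Cd34 and the other marker genes was not tested.

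The remaining 3 markers act inside the cell or at its membrane. Fgd5 (chr6:91978878-92076004, plus strand) encodes an exchange factor for the small GTPase CDC42 and is used as a reporter locus for stem cells. It was measured at 4.95, 4.88 and 5.40 CPM in the Tespa1+/+ and at 0.705, 0.620 and 0.726 CPM in the Tespa1-/- libraries, on 12, 9 and 9 counts in the latter. Replicates within each group were close, and the groups did not overlap. Fgd5 was 7.35-fold lower (log2 fold change -2.88, SE 0.15, edgeR adjusted p 5.8e-06). This was second only to the fold of Robo4. Pdzk1ip1 (chr4:115088708-115093899, plus strand) encodes MAP17, a small membrane protein whose promoter drives a stem cell reporter. Its levels were 3.63, 2.88 and 2.63 CPM against 1.41, 1.38 and 1.69 CPM, without overlap. It was 2.05-fold lower (log2 fold change -1.04, SE 0.19, edgeR adjusted p 0.00227).

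Ctnnal1 (chr4:56810935-56865188, minus strand) encodes alpha-catulin, whose locus also carries a stem cell reporter, and it was the only marker gene whose groups overlapped. Its levels were 9.36, 7.38 and 6.95 CPM in the Tespa1+/+ and 6.40, 6.89 and 7.66 CPM in the Tespa1-/- libraries. The highest knockout library lay above the middle wild-type library. The means were 7.90 ± 1.29 and 6.98 ± 0.636 CPM (SD, n = 3), and the log2 fold change of -0.18 (SE 0.14) was not significant (edgeR adjusted p 0.301). With the length correction the sign turned, to 0.14 (SE 0.14, edgeR adjusted p 0.447), and neither value was called.

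The stretches before the start sites of Fgd5 (chr6:91978715-91978877) and Pdzk1ip1 (chr4:115088458-115088707), both on the plus strand (RefSeq, GRCm38.p6), are shown because these loci serve as stem cell reporters and Pdzk1ip1 was the only marker with the MYC and MAX E-box in its window. Capitals mark CTTCCT, which is AGGAAG read on the other strand, in Fgd5 and the palindromic E-box CACGTG in Pdzk1ip1.
Fgd5: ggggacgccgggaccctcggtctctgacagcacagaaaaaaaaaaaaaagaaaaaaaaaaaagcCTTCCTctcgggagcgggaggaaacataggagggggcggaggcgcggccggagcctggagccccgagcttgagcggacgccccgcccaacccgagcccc
Pdzk1ip1: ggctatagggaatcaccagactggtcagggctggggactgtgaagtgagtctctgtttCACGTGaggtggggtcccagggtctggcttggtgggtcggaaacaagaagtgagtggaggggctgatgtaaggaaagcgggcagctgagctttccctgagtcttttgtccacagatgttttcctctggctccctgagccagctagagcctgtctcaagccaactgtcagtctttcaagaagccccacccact
The E-box lay 192 bases before the start of Pdzk1ip1 and was found in 1 of 9 marker genes with a RefSeq entry, against 6.02% of all windows. The ETS letters AGGAAG were found in 4 of 9 (Slamf1, Cd34, Fgd5 and Robo4), against 29.5% of all windows. The AP-1 site TGANTCA was found in Procr alone (6.75% of all windows). The letters AGATAA, the other form of the site of GATA factors, were in 0 of 9 windows (9.99% of all windows). The same held for CCGGAA, the other ETS form (12.03% of all windows). Searched as well, and found in 0 of 9, were the EGR forms GCGGGGGCG (2.57% of all windows) and GCGTGGGCG (0.536%), and the NR4A site AAAGGTCA (1.34%). None of the 10 motifs, which share no match with each other here, was found in the windows of Tek and Ctnnal1, and Esam had no entry. The windows differed in makeup, over the full 250 bases, with 31 CpG dinucleotides and 71.6% GC for Fgd5 and 3 CpG dinucleotides and 55.6% GC for Pdzk1ip1.

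Genes that act with or beside FGD5 were examined next. Of 19 tested genes of the Fgd family and the CDC42 pathway, 4 fell (Fgd1, Cdc42bpa, Akap13 and Wasl), 0 rose and 15 were not called, with a median log2 fold change of -0.20. Fgd1 went from 8.48 ± 0.838 to 2.53 ± 0.257 CPM (log2 fold change -1.74) and the kinase gene Cdc42bpa from 12.4 ± 0.407 to 3.38 ± 0.808 CPM (-1.86). Akap13 and Wasl fell by 0.79 and 0.69 on the log2 scale, and both calls were lost with the length correction (-0.04 and -0.49). The 4 lower genes are 21.1% of this list, near the 19.2% of all genes tested, and the 2 that remained with the length correction are 10.5%, against 17.1%. Cdc42 itself was at 362 ± 13.9 and 399 ± 16.3 CPM (log2 fold change 0.14, not called).

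**Figure D2:**
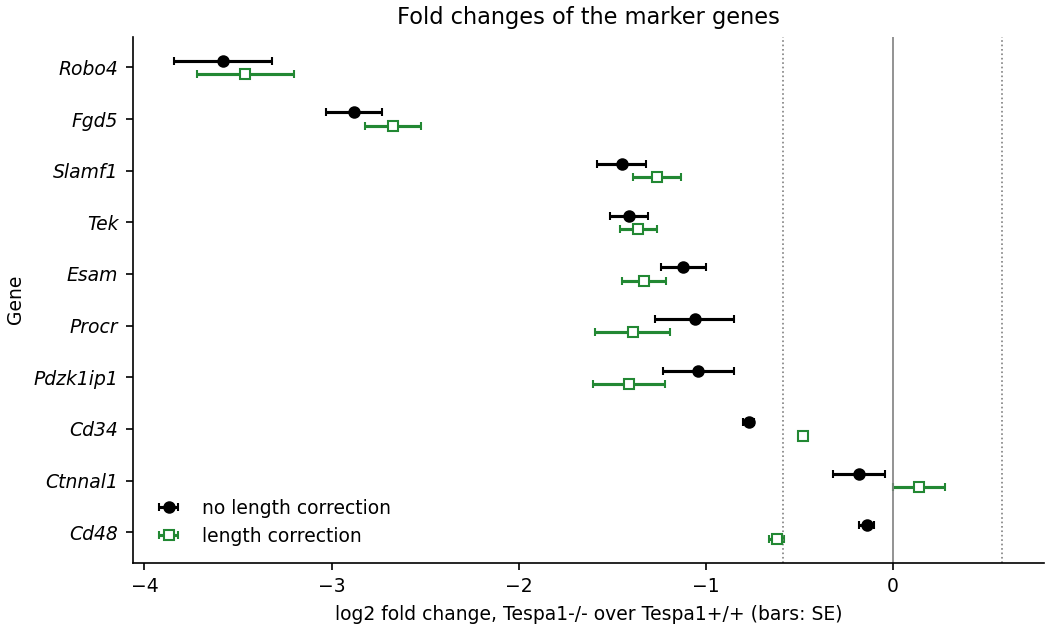
Log2 fold change of each marker gene, Tespa1-/- over Tespa1+/+, with bars of 1 SE, without (filled circles) and with (open squares) the length correction; dotted lines mark a fold of 1.5. Cd34 and Cd48 exchange sides of the dotted line, and the other 7 genes to the left of it stay there.

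The union exon lengths of the 10 genes ran from 1189 bases (Cd48) to 7661 bases (Ctnnal1). The 3 genes with the smallest differences were thus the shortest gene and, with Cd34 (7290 bases), the longest ones, and these were also the 3 whose call or sign changed with the length correction. For the other 7 genes the corrected log2 fold change lay between -3.46 (Robo4) and -1.26 (Slamf1), and each was called.

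**Figure D3:**
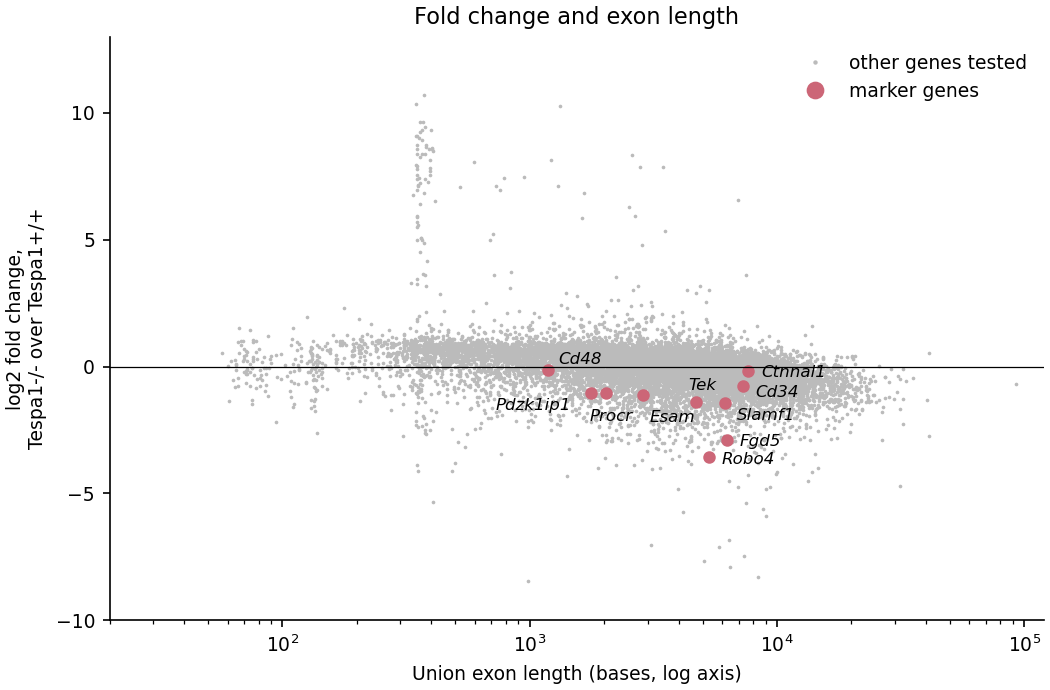
Log2 fold change against union exon length (bases, log axis) for the genes tested that have a length (grey) and the marker genes (red); 1 gene lies outside the axes. Robo4 (5302 bases) and Fgd5 (6292 bases) lie lowest of the marker genes, at -3.58 and -2.88.

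The levels of the 10 genes were then compared per length, in deposited FPKM. In Tespa1+/+ LSKs Cd48 (57.6 ± 1.34 FPKM) and Cd34 (54.0 ± 0.351 FPKM) were far above the rest, followed by Esam (2.19 ± 0.201 FPKM). The other 7 genes lay between 0.583 and 1.43 FPKM, in the order Procr, Tek, Slamf1, Ctnnal1, Pdzk1ip1, Robo4 and Fgd5. In this order the ranges of neighbours overlapped for Procr and Tek and for each step from Slamf1 to Robo4. In Tespa1-/- LSKs Cd48 (48.7 ± 1.11 FPKM), Cd34 (29.5 ± 0.557 FPKM) and Esam (0.941 ± 0.0514 FPKM) kept the first places. Ctnnal1 (0.696 ± 0.0638 FPKM) came next, with a range that overlapped that of Procr, and Robo4 (0.0578 ± 0.0277 FPKM) came last, with a range that overlapped that of Fgd5. All 8 genes other than Cd48 and Cd34 were under 3 FPKM in every library.

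Other genes that have been reported as stem cell markers moved in both directions. Of 47 tested genes 22 fell, 7 rose and 18 were not called, with a median log2 fold change of -0.56 (20 lower and 6 higher with the length correction). The lower share was 46.8%, or 42.6% with the length correction, against 19.2% and 17.1% of all genes tested. Of all 15332 genes tested 14.0% were higher, and with the length correction 988 were higher. The 4 called genes with the highest mean counts were among those that rose. They are the interferon-induced genes Ifitm1 (157 ± 7.25 to 607 ± 3.89 CPM, log2 fold change 1.95) and Ifitm3 (log2 fold change 0.81), the glutathione transferase gene Gstm1 (1.02) and the guanine deaminase gene Gda (0.67). The call of Ifitm3 was lost with the length correction (0.24).

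Genes that encode the surface proteins of the sort and of progenitor gates were read on the same scale. In this list 31.6% of the tested genes were lower, or 26.3% with the length correction, against 19.2% and 17.1% of all genes tested. Kit fell from 333 ± 9.79 to 170 ± 6.13 CPM (log2 fold change -0.97, SE 0.04, edgeR adjusted p 2.1e-06), a call lost with the length correction (-0.58). Ly6a was at 50.5 ± 11.6 and 40.4 ± 3.36 CPM with overlapping groups (log2 fold change -0.32, edgeR adjusted p 0.109) and was called lower with the length correction (-0.80). Flt3, which encodes the Flk2 receptor that is absent from LT-HSCs and present on multipotent progenitors, fell from 226 ± 2.74 to 112 ± 0.708 CPM (log2 fold change -1.01, SE 0.03, edgeR adjusted p 1.0e-06). Il7r, Cd93, Cd33 and Csf1r also fell, by 1.75, 1.70, 0.95 and 0.65 on the log2 scale, and Csf1r lost its call with the length correction (-0.49). Fcgr3 and Fcgr2b, which encode the Fc receptors of granulocyte and macrophage progenitors, rose by 0.72 and 0.70, and Fcgr3 lost its call with the length correction (0.34). The other 10 of 19 tested genes were not called, with log2 fold changes given in brackets: Itgam (-0.57), Ptprc (-0.32), Csf3r (-0.13), Spn (-0.19), Cd53 (-0.07), Csf2ra (0.13), Ly6e (0.11), Cd37 (0.22), Cd24a (0.29) and Cd38 (0.38).

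Markers of mature blood cells moved with the genotype as well. Their counts stand beside 19.2% lower and 14.0% higher over all 15332 genes tested. With the length correction 17.1% of these were lower and 988 genes were higher. Of 14 tested neutrophil markers 13 rose and 0 fell, and their summed level was between 28.8 and 32.2 CPM in Tespa1+/+ and between 521 and 553 CPM in Tespa1-/- libraries, with Lcn2 at 15.8 ± 0.701 and 129 ± 8.64 CPM and S100a9 at 0.905 ± 0.258 and 115 ± 4.25 CPM. Ly6g was at 0 in every Tespa1+/+ library. Of 7 tested megakaryocyte markers 4 fell and 0 rose, or 6 and 0 with the length correction (summed level 42.0 to 45.0 and 22.4 to 25.1 CPM), with Gp6 at 0 in every library. Of 5 T cell markers 4 fell and 0 rose (23.1 to 24.3 and 11.6 to 12.1 CPM). Most of this sum came from Lck (12.8 ± 0.717 and 6.96 ± 0.541 CPM) and Tcf7 (5.03 ± 0.136 and 2.18 ± 0.534 CPM). B cell and plasma cell markers were mixed, with 6 of 10 lower and 1 higher, as were erythroid markers, with 4 of 10 lower and 5 higher, and monocyte and macrophage markers, with 2 of 8 lower and 1 higher. Their summed levels were 104 to 133 and 139 to 148 CPM, 239 to 265 and 393 to 423 CPM, and 810 to 841 and 931 to 1010 CPM, respectively. Single genes weighed heavily in these sums. Jchain (40.3 ± 13.4 and 90.7 ± 2.74 CPM) was the largest part of the B cell and plasma cell sum. Tfrc (198 ± 13.6 and 346 ± 13.6 CPM) made up most of the erythroid sum. Ly6c2 (251 ± 18.2 and 462 ± 19.5 CPM) rose by more than the whole monocyte and macrophage sum. The part of these cells in the differences of the marker genes was not tested.

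**Figure D4:**
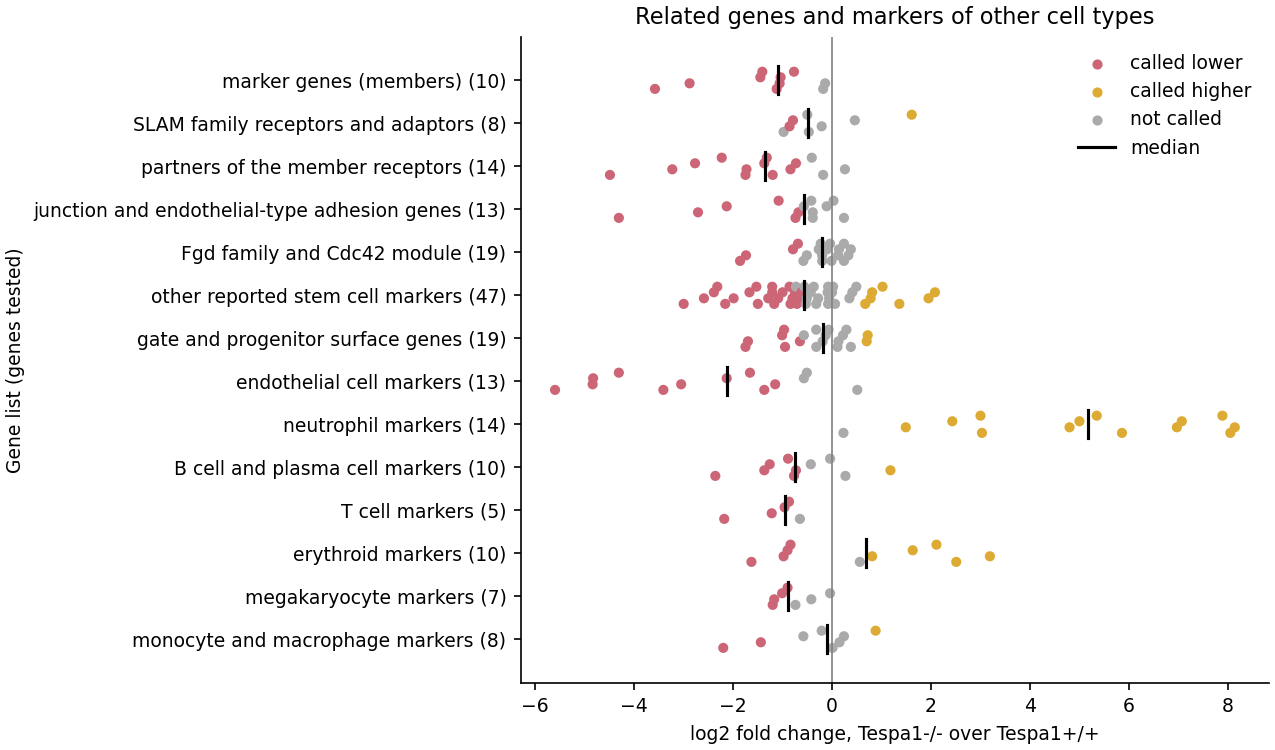
Log2 fold change of every tested gene in the marker genes and 13 related lists, with calls by edgeR (adjusted p under 0.05 and fold over 1.5) in colour and the median of each list as a bar; the number of genes tested follows each name. The marker genes and their receptor partners lie mostly left of 0, with medians of -1.09 and -1.35, and the neutrophil markers lie to the right.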

How the data were processed

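Bone marrow LSKs of irradiated mice were sequenced as stranded poly-A paired-end libraries. The processing notes of the submitters list CASAVA 1.8, HISAT2, StringTie, edgeR and GRCm38. The strand setting and annotation of the counting are not given in the sources used here. The authors deposited a raw count and an FPKM value per gene and sample. The deposited FPKM divides the count by the sample total and by a fixed length per gene that matched no single definition of gene length, which bears on levels compared between genes. Groups came from the sample titles.

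Counts were filtered (filterByExpr), scaled (TMM) and tested with edgeR 4.0.16 in R 4.3.3 (quasi-likelihood F-test, two-sided, all 6 libraries, no covariates), with Benjamini-Hochberg adjustment over 15332 genes. SEs were taken as the log2 fold change over the root of F. The length correction fitted the deviation of log2 CPM from the mean of the 6 libraries on union exon length (GENCODE M21, 15320 of 15332 genes) by loess with a span of 0.5, on genes with a log2 CPM over 3, and used the fit as an offset. Of the 55487 IDs, 55227 were in GENCODE M21. With 12856630 counts or more per library, every marker gene was counted in every library, but the low counts of Robo4 and Fgd5 in Tespa1-/- libraries limit their precision. The libraries carried no stated molecular identifiers, so this covers counting error only. On simulated counts edgeR recovered 90% of 200 changed genes with 4 false calls among 15068 genes. These 200 genes were drawn above a minimum mean count and changed by a fixed fold. The recovery therefore does not extend to genes with few counts or to libraries in which more genes change. With a simulated length trend there were 1746 false calls among 15114 genes, and 2 after the correction. The simulated trend depended on the same length that the correction uses. The simulation therefore cannot show how well the correction suits these libraries or how much real change it removes.

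Alternatives were DESeq2 1.42.0, glmTreat, RLE factors, total counts, no filter, a minimum of 10 counts in each library, the unadjusted p of the study, a replicate block, the omission of single replicates, limma-trend (limma 3.58.1) on log2(FPKM + 1) and log2(FPKM + 0.1) where 3 libraries reached 1 FPKM, and length corrections with union exon length, with the length implied by FPKM and with the replicate block. The marker genes, lists and tests were chosen with earlier results of these data known. Named were all 10 marker genes, Tespa1, tested genes of the SLAM, partner and gate lists, up to 4 called genes with the highest mean count of other related lists, the most abundant and the absent markers of other cell types, and neighbours of marker genes that lie within 200000 bases of each other. Of the marker lists of other cell types, further restricted endothelial markers (Cdh5, Stab2 and Flt1) were chosen after their values were seen. A few genes that this rule names are not reported here.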

Additional observations from a re-analysis of the deposited data

How the results depend on the processing

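The 8 lower calls were found with every alternative that tested all 10 marker genes without a correction for length, including DESeq2, glmTreat and each replicate left out (median log2 fold change -1.2 to -1.04). Requiring 10 counts in every sample left 8 of the genes, of which 6 were lower. Limma-trend tested only 5 of the genes and called 3 lower on log2(FPKM + 1) (median -0.63) and 4 on log2(FPKM + 0.1). The median was -1.34 with the length correction, -1.34 when it was combined with the replicate block and -1.3 with the length implied by FPKM, which called 7 genes lower. Ctnnal1 turned to 0.14, 0.14 and 0.02, respectively. Cd34 lost its call in all 3 (-0.48, -0.48 and -0.57), and Cd48 gained one in the first 2 (-0.62 in both). Over all genes, the length correction lowered the higher calls from 2148 to 988 (1052 with the implied length and 976 with the block), glmTreat gave 1020 higher and 1807 lower genes, and limma-trend on log2(FPKM + 1) gave 1070 higher and 1626 lower genes, with 1365 higher on log2(FPKM + 0.1). The replicate block, without length correction, gave 8 lower marker genes, a median of -1.08, and 2101 higher and 2871 lower genes overall. The replicate numbers were not taken as a pairing, since same-numbered libraries deviated together only weakly (correlations 0.0459, 0.0107 and 0.0595), although 6 of 6 libraries correlated best with their own number. Depth limits genes with few counts, such as Robo4 with 4 to 14 counts in Tespa1-/- libraries, whose log2 fold change ranged from -3.97 to -3.24 over the alternatives.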
